A study of Mus musculus with 3 samples.

Results

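The receptors for neurotrophins and for ligands of the GDNF family are described here by 7 of the 31053 genes counted: Ntrk2, Ntrk3, Ngfr, Sort1, Gfra1, Gfra2 and Ret. They were taken by name, and their mRNA was followed in single cells of the mouse neocortex. Cells were kept when they held more than 700 detected genes and under 10% of their UMIs (unique molecular identifiers, each standing for 1 captured mRNA molecule) on mitochondrial genes, which left 9433 of 12324 cells. Nos1 cells are the 1048 kept cells with at least 1 Nos1 UMI. Lhx6 cells are the 6749 kept cells with an Lhx6 UMI and no Nos1 UMI. Nos1, neuronal nitric oxide synthase, marks long-range projecting neurons among cortical neurons that make somatostatin, and Lhx6 is a transcription factor of inhibitory neurons born in the medial ganglionic eminence. The study asked how these long-range neurons and the local interneurons take separate paths during development. All 3 libraries came from SstCre/+;RCEfl/+ mice, in which Cre driven by the Sst gene turns on a GFP reporter, and GFP-positive, DAPI-negative cells were sorted. There was 1 library per stage: embryonic day 16.5 (E16.5) from 6 pooled animals, postnatal day 1 (P1) from 3 and P5 from 3. Suspensions at P1 and P5 passed over Percoll to take out myelin, and digestion at P5 also used trypsin and DNase. Stage, animals, dissociation and sequencing depth therefore cannot be told apart. Nos1 and Lhx6 cells were compared within each library, but the 3 libraries are 3 stages and not repeats of 1 group. No test was run, and every interval given covers counting error only.

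Neurotrophins are secreted growth factors that signal through Trk receptor tyrosine kinases, and TrkB, the product of Ntrk2, is the receptor through which BDNF promotes the maturation of cortical inhibitory neurons. Their unprocessed forms bind a complex of the neurotrophin receptor encoded by Ngfr and the sorting receptor sortilin, encoded by Sort1. Ligands of the GDNF family bind a membrane-anchored co-receptor, such as the products of Gfra1 and Gfra2, and the pair then engages the Ret tyrosine kinase.

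The E16.5 library held 4478 cells and 25638779 UMIs, the P1 library 4440 cells and 15654107 UMIs, and the P5 library 3406 cells and 13429055 UMIs. The filter kept 88.3% of the E16.5 cells and 87.5% of the P5 cells. The P1 library stood apart: it kept 56.3%, and its median mitochondrial share before filtering was 7.52%, against 4.23% in the E16.5 library and 4.39% in the P5 library. Cell barcodes found in both libraries of a pair numbered 3 for E16.5 and P1, 1 for E16.5 and P5, and 6 for P1 and P5. In the order E16.5, P1, P5, which all runs of 3 values follow, Nos1 cells numbered 67, 434 and 547, with medians of 7863, 3704.5 and 3073 UMIs. Lhx6 cells numbered 3269, 1606 and 1874, with medians of 5808, 3811 and 4752.5 UMIs. The E16.5 Nos1 class is thus small, and its cells were deeper than the Lhx6 cells of the same library, while those of P5 were shallower.

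The classes were checked against marker genes. Nos1 and Lhx6 are on the lists but are set by the class rule, so their own values check nothing. The 5 other long-range markers (Chodl, Npy, Pou3f2, Tacr1 and Sst) were detected in both classes. With Nos1, which gave 269, 1971.5 and 2726 CPM in Nos1 cells and 0 elsewhere by rule, the list had summed levels of 18120, 32717.5 and 42400.4 CPM (each gene's UMIs scaled so that all genes of a class sum to the same total), against 4554, 2793 and 2262 in Lhx6 cells. Npy was the most abundant of them in Nos1 cells, at 12365.5, 24679 and 34619.3 CPM, against 1635, 1208 and 815.5 CPM in Lhx6 cells. All 7 medial ganglionic eminence markers were detected in both classes, at 6872, 8395 and 6245 CPM in Nos1 cells and 5527, 5832 and 4135 CPM in Lhx6 cells, Lhx6 included. Sst, which is on both lists, gave 5269.7, 5332 and 4205 CPM of this in Nos1 cells and 2901, 1518 and 1425 CPM in Lhx6 cells. Without Sst the sum is higher in Lhx6 cells in each library. That sum still holds Lhx6, which the class rule sets, so its order checks nothing. An Lhx6 UMI was present in 73.1%, 82.9% and 71.7% of Nos1 cells.

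Excitatory markers were also present in the Nos1 class. All 5 of them (Neurod6, Neurod2, Slc17a7, Slc17a6 and Tbr1) had UMIs in Nos1 cells at E16.5 and P1, and 4 at P5, where Slc17a6 was at 0. Their summed level in Nos1 cells was 581, 154 and 6.11 CPM, against 8.05, 9.36 and 2.81 CPM in Lhx6 cells. The most abundant in Nos1 cells was Neurod6 at E16.5 (303 CPM), Neurod2 at P1 (51.3 CPM) and Slc17a7 at P5 (2.55 CPM). UMIs of at least 2 of these markers were found in 14 of the 67 Nos1 cells of the E16.5 library (20.9%). At P1 the number was 17 of 434 (3.92%), and at P5 3 of 547 (0.548%). Those 14 cells had a median of 11981.5 UMIs, against 7272 in the other 53. Doublets were not called and stayed in both classes.

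Apart from Meis2 the remaining marker lists were low in Nos1 cells, though astrocyte and radial glia markers at E16.5 stood above their level in Lhx6 cells. Of the 5 markers of Meis2-type and caudal eminence neurons, 2 had UMIs at E16.5, where Sp8, Htr3a and Vip were at 0, and 4 at P1 and at P5. Their sum in Nos1 cells was 172, 58.9 and 6.62 CPM over the 3 stages, led by Meis2 at 168, 51.3 and 4.07 CPM, against 14.7, 6.24 and 1.51 CPM in Lhx6 cells. Astrocyte and radial glia markers summed to 18.5, 4.06 and 1.02 CPM in Nos1 cells, against 1.22, 3.37 and 0.972 CPM in Lhx6 cells. At E16.5 the intervals were apart (9.24 to 33.1 and 0.800 to 1.79). The Nos1 sum there was mostly Fabp7, with Aqp4, Aldh1l1 and Gfap at 0. Olig1, Olig2 and Sox10, markers of the oligodendrocyte lineage, were at 0. Microglial markers stood at 1.68, 0 and 0 CPM, and endothelial and mural markers at 1.68, 3.55 and 4.07 CPM, with Cldn5 at 0.

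**Figure D1:**
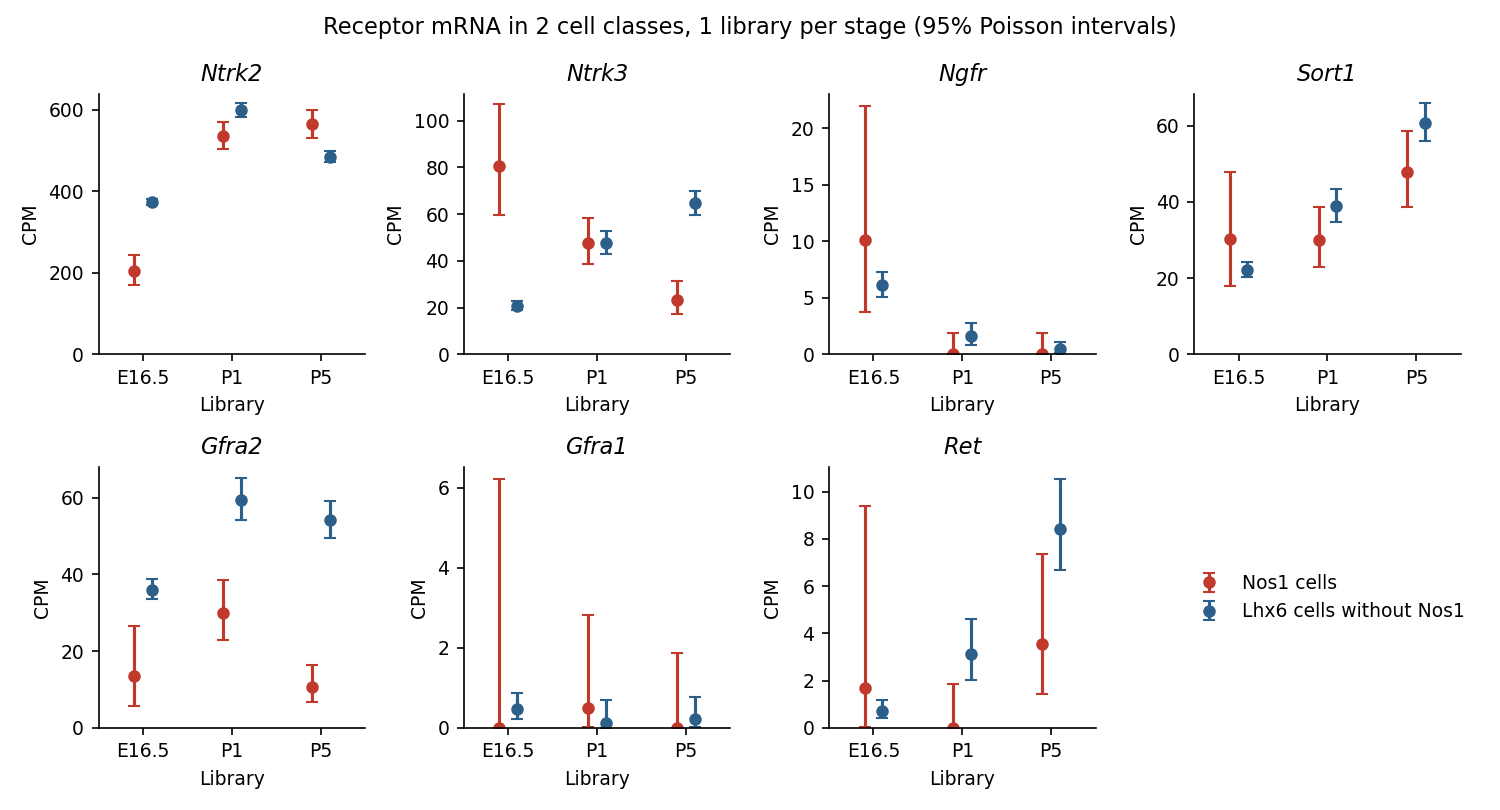
CPM of the 7 receptor genes (vertical axes, each with its own scale) in Nos1 cells and Lhx6 cells of the E16.5, P1 and P5 libraries (horizontal axes), as points with 95% Poisson intervals of the summed UMIs. Gfra2 lies lower in Nos1 cells in all 3 libraries, at 13.5 against 36.0 CPM, 30.0 against 59.4 and 10.7 against 54.2, while the order of the classes for Ntrk2 and Ntrk3 differs between libraries.

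Ntrk2 encodes TrkB, the receptor for BDNF. It is annotated as ENSMUSG00000055254 on the plus strand of chromosome 13 from 58806569 to 59133970 (GRCm38), with coding transcripts of 821 codons and shorter ones of 466 to 492 codons that end at other 3′ sites, and the counts sum over them. In Nos1 cells it stood at 204 CPM (95% Poisson interval 169 to 243) at E16.5, 537 CPM (505 to 571) at P1 and 565 CPM (532 to 599) at P5. The levels in Lhx6 cells were 374 CPM (366 to 382), 601 CPM (584 to 618) and 485 CPM (471 to 499.8). Nos1 cells were thus lower at E16.5 and P1 and higher at P5, with a log2 ratio to Lhx6 cells (1 CPM added to both sides) of -0.87 (counting interval -1.15 to -0.62) at E16.5, -0.16 (-0.26 to -0.06) at P1 and 0.22 (0.12 to 0.31) at P5. None of these ratios reached 2-fold, but the one at E16.5 passed it where at least 2 or at least 5 Nos1 UMIs were required. Ordered by level, Lhx6 cells at P1 came first, then Nos1 cells at P5 and at P1, whose intervals overlap each other and, at P5, that of the leading class. Lhx6 cells at P5, Lhx6 cells at E16.5 and Nos1 cells at E16.5 followed, each with an interval clear of its neighbours. Without the Nos1 and Lhx6 cells that held at least 2 excitatory markers, a setting chosen after the data were seen, Ntrk2 in Nos1 cells at E16.5 was 268 CPM (221 to 324) and the log2 ratio -0.48.

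The share of cells with an Ntrk2 UMI was lower in Nos1 cells at E16.5, before and after depth was made equal. At E16.5 it was 58.2% of Nos1 cells and 83.4% of Lhx6 cells, and 29.2% and 51.1% after every cell was thinned to 2000 UMIs. Thinning left out 2 Nos1 and 169 Lhx6 cells at E16.5, 78 and 291 at P1, and 133 and 201 at P5. At P1 the shares were 74.0% and 84.8% before thinning and 59.6% and 65.6% after it. At P5 they were 75.5% and 83.5% before thinning and 66.4% and 60.4% after it, and without thinning Lhx6 cells were the deeper. The intervals of the thinned shares overlap at P1 and P5, so no order is read there. RNA set free from other cells can add UMIs to any cell, and the comparison for it is the excitatory-marked cells, kept cells with at least 2 excitatory markers and no Lhx6 or Nos1 UMI (26, 21 and 19 cells with medians of 11357, 5368 and 5007 UMIs). Cortical excitatory neurons make TrkB and TrkC themselves, so for Ntrk2 and Ntrk3 these cells are no measure of free RNA. Ntrk2 was detected in 50%, 90.5% and 94.7% of them, and in 8%, 52.6% and 50% after thinning.

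Ntrk3 encodes TrkC, the receptor for the Ntf3 product. The gene (ENSMUSG00000059146) lies on the minus strand of chromosome 7 from 78175959 to 78738012, with coding transcripts of 825 to 864 codons, shorter ones of 612 and 86, and 1 incomplete. In Nos1 cells it stood at 80.8 CPM (59.6 to 107) at E16.5, 47.7 CPM (38.6 to 58.4) at P1 and 23.4 CPM (17.2 to 31.3) at P5. Lhx6 cells ran the other way, at 20.7 CPM (18.8 to 22.8), 47.6 CPM (42.9 to 52.6) and 64.6 CPM (59.5 to 70.0). Nos1 cells were 3.90-fold above Lhx6 cells at E16.5, a log2 ratio of 1.91 (1.501 to 2.39). The classes were level at P1, at 0.00 (-0.34 to 0.33), and Lhx6 cells were 2.76-fold above Nos1 cells at P5, at -1.42 (-1.93 to -1.03). Of the 46 Ntrk3 UMIs of Nos1 cells at P5, 19 were in the 81 cells with exactly 1 Nos1 UMI, at 60.6 CPM (36.5 to 94.7), which overlaps the Lhx6 level. Cells with 2 to 4 Nos1 UMIs held none, and those with 5 or more stood at 18.5 CPM (12.2 to 26.9). Nos1 cells at E16.5 and Lhx6 cells at P5 overlap at the top of the order, both classes at P1 overlap in the middle, and Nos1 cells at P5 and Lhx6 cells at E16.5 overlap at the bottom.

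The high Ntrk3 level of the E16.5 Nos1 class sat in the cells with excitatory markers. Of its 48 Ntrk3 UMIs, 38 were in the 14 Nos1 cells with at least 2 excitatory markers, at 206 CPM (146 to 283), and 10 were in the other 53, at 24.4 CPM (11.7 to 44.9). With such cells left out of both classes, the log2 ratio at E16.5 was 0.25 in place of 1.91, though with under 10 expected UMIs. The 13 Nos1 cells at E16.5 with a Meis2 UMI held 28 Ntrk3 UMIs, at 210.3 CPM (140 to 304). At P1 the 17 Nos1 cells with at least 2 excitatory markers held 37 Ntrk3 UMIs (219.6 CPM) and the other 417 held 57 (31.6 CPM, 24.0 to 41.0), which took the P1 log2 ratio from 0.00 to -0.54. At P5 the 3 such cells held no Ntrk3 UMI, and the ratio was -1.42 with or without them. The excitatory-marked cells themselves held Ntrk3 at 168 CPM (125 to 221) at E16.5, 247 CPM (169 to 349) at P1 and 102 CPM (46.5 to 193) at P5. Where Chodl, another long-range marker, defined the class in place of Nos1, the log2 ratio of Ntrk3 was 0.18 at E16.5 and -0.61 at P5. What the Nos1 cells with excitatory markers are was not tested.

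Shares of cells with an Ntrk3 UMI were 25.4%, 13.1% and 6.22% of Nos1 cells over the 3 stages, and 9.23%, 6.74% and 3.86% after thinning. In Lhx6 cells they were 10.9%, 13.1% and 20.0%, and 4.26%, 6.84% and 10.9% after thinning. After thinning the intervals of the 3 Nos1 shares overlap. The fall in Nos1 cells rests on the cells with excitatory markers: without them Ntrk3 stood at 24.4, 31.6 and 23.5 CPM, and with Chodl in place of Nos1 at 23.6, 47.1 and 41.7 CPM.

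Ngfr encodes the neurotrophin receptor that binds every neurotrophin and, with sortilin, their precursors. Its locus (ENSMUSG00000000120) is on the minus strand of chromosome 11 from 95568818 to 95587735. At E16.5 it stood at 10.1 CPM in Nos1 cells (3.71 to 22.0, from 6 UMIs in 5 cells) and 6.12 CPM in Lhx6 cells (5.12 to 7.27, from 130 UMIs), which overlap. All 6 of the Nos1 class lay in the 38 cells with exactly 1 Nos1 UMI, and 2 of them in the 49 Nos1 cells with an Lhx6 UMI. At P1 it had no UMI in Nos1 cells, which allows up to 1.52 CPM, and stood at 1.62 CPM (0.864 to 2.78) in Lhx6 cells. At P5 it had no UMI in Nos1 cells, which allows up to 1.53 CPM, and 4 UMIs in Lhx6 cells (0.432 CPM, 0.118 to 1.11). Between the classes the CPM intervals overlap in each library. Ngfr was detected in 7.46% of Nos1 cells and 2.97% of Lhx6 cells at E16.5 (7.69%, 2.54 to 17.0, and 0.806%, 0.523 to 1.19, after thinning, which do not overlap). Thinned to 1000 UMIs they were 1.49% (0.0378 to 8.04, 1 cell) and 0.490% (0.281 to 0.795), which do. The E16.5 shares stand against 7.69% of the deeper excitatory-marked cells (0 of 25 after thinning), which held Ngfr at 6.59 CPM (0.798 to 23.8). At P1 and P5 it was in 0.498% and 0.213% of Lhx6 cells (0.152% and 0.179% after thinning) and in 4.76% and 5.26% of excitatory-marked cells. Before thinning, these shares lie at or below those of the excitatory-marked cells, and after thinning the intervals of Nos1 and excitatory-marked cells at E16.5 overlap. Whether these UMIs are background was not tested.

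Sort1 encodes sortilin, which carries proneurotrophins and other cargo between compartments. Its locus (ENSMUSG00000068747) is on the plus strand of chromosome 3 from 108284082 to 108361511. Nos1 cells held it at 30.3 CPM (18.0 to 47.9) at E16.5, 30.0 CPM (22.8 to 38.6) at P1 and 47.9 CPM (38.7 to 58.6) at P5, and Lhx6 cells at 22.1 CPM (20.2 to 24.2), 38.8 CPM (34.6 to 43.4) and 60.8 CPM (55.9 to 66.0). Every neighbour in the order of these levels overlaps the next. The log2 ratio of Nos1 to Lhx6 cells was 0.44 (-0.31 to 1.13), -0.36 (-0.80 to 0.03) and -0.34 (-0.68 to -0.03), so counting error excluded 0 at P5 alone. The share of Nos1 cells with a Sort1 UMI was 20.9%, 11.1% and 15.0%, and 6.15%, 3.37% and 7.97% after thinning. In Lhx6 cells the shares were 13.2%, 16.3% and 25.3%, and 4.26%, 6.996% and 10.8% after thinning. Excitatory-marked cells had 34.6%, 23.8% and 36.8%, and 8%, 5.26% and 27.8% after thinning. The Nos1 shares lie below these in each library, as do the Lhx6 shares at E16.5 and P5. Excitatory-marked cells held Sort1 at 32.9, 38.6 and 90.3 CPM, not below Nos1 cells, so they give no background share for it. Neither expression nor background is read from these shares.

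Among the GDNF family members, Gfra1 encodes the co-receptor that prefers GDNF. It is ENSMUSG00000025089, on the minus strand of chromosome 19 from 58235604 to 58455909. Gfra1 had no UMI in Nos1 cells at E16.5 and P5 and 1 at P1 (0.508 CPM). Lhx6 cells held 10 Gfra1 UMIs in 5 cells at E16.5 (0.471 CPM, 0.226 to 0.866), 1 at P1 (0.125 CPM) and 2 at P5 (0.216 CPM). The count of 0 allows up to 4.48% of Nos1 cells at E16.5 and 0.548% at P5 to hold a UMI, which is no limit on the cells that express the gene. Gfra1 was in 0.153%, 0.0623% and 0.107% of Lhx6 cells (0.0323% at E16.5 after thinning), against 3.85%, 0% and 0% of excitatory-marked cells. Gfra1 was thus near the detection limit in both classes, with 24 UMIs over all kept cells.

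Gfra2 encodes the co-receptor that prefers neurturin, and lies on the plus strand of chromosome 14 from 70890120 to 70979838 (ENSMUSG00000022103). In Nos1 cells it stood at 13.5 CPM (5.81 to 26.5) at E16.5, 30.0 CPM (22.8 to 38.6) at P1 and 10.7 CPM (6.62 to 16.4) at P5. Lhx6 cells held it at 36.0 CPM (33.5 to 38.7), 59.4 CPM (54.2 to 65.0) and 54.2 CPM (49.6 to 59.2). Lhx6 cells were higher in each library, by 2.68-fold, 1.98-fold and 5.07-fold, with log2 ratios of Nos1 to Lhx6 cells of -1.36 (-2.64 to -0.43), -0.97 (-1.40 to -0.60) and -2.24 (-3.05 to -1.71). The Lhx6 cells of the 3 libraries head the order of levels and the Nos1 cells follow. Lhx6 cells at P1 and P5 overlap, as do Lhx6 cells at E16.5 and Nos1 cells at P1, and Nos1 cells at P1, E16.5 and P5 overlap their neighbours. Without cells holding at least 2 excitatory markers Gfra2 at E16.5 was 19.5 CPM (8.43 to 38.5) in Nos1 cells against 36.1 CPM, a log2 ratio of -0.86. With Chodl in place of Nos1 the ratio was -0.40 at E16.5 and -1.30 at P5.

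Gfra2 was also in a smaller share of Nos1 cells than of Lhx6 cells, after thinning with intervals that are apart at P5 alone. The shares were 11.9% and 15.6% at E16.5 (1.54% and 6.61% after thinning), 8.99% and 17.3% at P1 (4.78% and 8.44%), and 3.84% and 18.1% at P5 (2.42% and 9.15%). Excitatory-marked cells had a Gfra2 UMI in 7.69% at E16.5 (4% after thinning), in 0 of 21 at P1, which allows up to 14.3%, and in 0 of 19 at P5, which allows up to 15.8%. The Gfra2 share of Nos1 cells at E16.5 after thinning lies below that of the excitatory-marked cells, from 1 cell in each, while the share before thinning lies above it, so neither expression nor background is read from it. At P1 Gfra2 was at 56.0 CPM (39.2 to 77.5) in cells with exactly 1 Nos1 UMI, 36.0 CPM (17.3 to 66.2) with 2 to 4 and 12.4 CPM (6.60 to 21.2) with 5 or more, so the first and last are apart. The P5 values of 22.3, 15.7 and 7.54 CPM, from 7, 3 and 11 UMIs, have intervals that overlap, as do those at E16.5 of 15.5, 12.5 and 9.06 CPM, from 5, 2 and 1. With at least 2 Nos1 UMIs required, the log2 ratio to Lhx6 cells at P1 was -1.72, past 2-fold.

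Ret encodes the signalling kinase shared by the GDNF family co-receptors. Its locus (ENSMUSG00000030110) is on the minus strand of chromosome 6 from 118151745 to 118197718. Lhx6 cells held it at 0.707 CPM (0.395 to 1.17) at E16.5, 3.12 CPM (2.02 to 4.61) at P1 and 8.42 CPM (6.66 to 10.51) at P5. Nos1 cells held 1 Ret UMI at E16.5 (1.68 CPM, 0.0426 to 9.38), none at P1 and 7 at P5 (3.57 CPM, 1.43 to 7.35). At P5 Lhx6 cells were 2.36-fold above Nos1 cells, a log2 ratio of -1.05 (-2.60 to -0.13) with a wide interval, and the 2 levels' own intervals overlap. Ret was in 0.459%, 1.43% and 3.74% of Lhx6 cells (0.161%, 1.06% and 1.85% after thinning), and in 1.49%, 0% and 1.10% of Nos1 cells (0%, 0% and 0.242%). The 0 of 434 Nos1 cells at P1 allows up to 0.691% of cells with a UMI. Excitatory-marked cells had a Ret UMI in 0%, 4.76% and 0%, the value at P1 being 1 cell of 21.

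**Figure D2:**
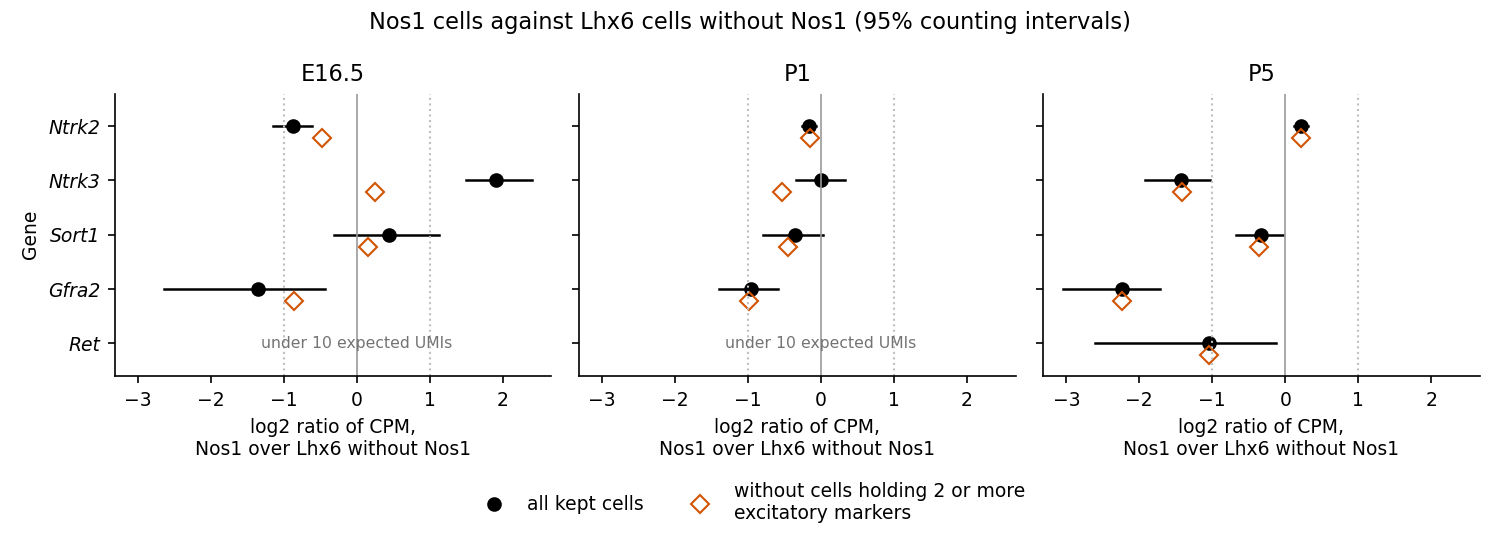
Log2 ratio of CPM in Nos1 cells over Lhx6 cells (horizontal axes) in each library, for the 5 receptor genes (rows) with at least 10 expected UMIs in at least 1 library. Filled points have 95% counting intervals, and open diamonds leave out cells holding at least 2 excitatory markers. Ret has no point at E16.5 and P1, where it had under 10 expected UMIs. Ntrk3 at E16.5 moves from 1.91 to 0.25 when those cells are left out, the latter with under 10 expected UMIs. Gfra2 at P5 stays near -2.24, at -2.23.

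Set against all genes, the members that differed by over 2-fold between Nos1 and Lhx6 cells were 2 of the 4 compared at E16.5, none of 4 at P1 and 3 of 5 at P5. A gene entered where its pooled rate gave at least 10 expected UMIs in the smaller class. At E16.5 that left 4 of the 7 members, of which Ntrk3 was over 2-fold higher in Nos1 cells and Gfra2 over 2-fold lower. Over the 7374 genes compared there, 1.78% were higher and 2.58% lower by that much. Leaving out cells with at least 2 excitatory markers, thinning to 2000 UMIs, or taking Chodl in place of Nos1 each left 0 members past 2-fold at E16.5. After thinning neither Ntrk3 nor Gfra2 had 10 expected UMIs, so neither entered, and their log2 ratios were 0.97 and -2.19. Without the cells with excitatory markers Ntrk3 also had under 10 expected UMIs and did not enter. At P1 again 4 members entered and 0 passed, with 2.67% of 10516 genes higher and 2.32% lower. At P5 5 members entered, and Ntrk3, Gfra2 and Ret were over 2-fold lower in Nos1 cells, where 2.77% of 10453 genes were higher and 5.25% lower. With Chodl in place of Nos1, Gfra2 alone passed at P5, and Ret was at -0.57. The median log2 ratio of the members that entered was -0.22, -0.26 and -1.05, against -0.04, -0.03 and -0.08 over all genes. Ngfr and Gfra1 entered in none of the 3 libraries.

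The stage comparisons ask how receptor mRNA differs between the libraries within a class, across birth and over the days that follow it. Within Lhx6 cells, Ntrk3 and Ret were over 2-fold higher and Ngfr over 2-fold lower at P1 than at E16.5, from 6 members that entered, where 10.7% of 12290 genes were higher and 3.66% lower. The log2 ratio was 1.16 (1.00 to 1.40) for Ntrk3, 1.27 (1.16 to 3.17) for Ret and -1.44 (-2.86 to -1.09) for Ngfr, the last from 13 UMIs at P1. It was 0.68 (0.63 to 0.74) for Ntrk2, 0.78 (0.60 to 1.02) for Sort1 and 0.71 (0.55 to 0.89) for Gfra2, all under 2-fold. The median of the 6 was 0.75, against 0.16 over all genes. These 3 calls depended on the settings. With over 1000 genes and under 5% mitochondrial UMIs required, with thinning to 2000 UMIs, or with 10 CPM added in place of 1, 0 members were called. Ntrk3 was then at 0.46, 0.81 and 0.91. Ret stayed at 1.73 and Ngfr at -1.65 with the stricter filter, and at 1.89 and -1.32 after thinning, but with under 10 expected UMIs, and they were at 0.29 and -0.47 with 10 CPM added. Gfra2 was at 0.23 with the stricter filter, and with no filter Ntrk3 and Gfra2 were at 1.45 and 1.23.

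From P1 to P5 within Lhx6 cells, 5 members entered and Ret alone passed 2-fold, at 1.19 (0.77 to 2.14), where 9.01% of 12776 genes were higher and 10.4% lower. Sort1 was higher at P5 by 0.63 (0.44 to 0.85) and Ntrk3 by 0.43 (0.25 to 0.63). Ntrk2 was lower at P5, at -0.31 (-0.37 to -0.25), and Gfra2 did not differ beyond counting error, at -0.13 (-0.32 to 0.05). The median of the 5 was 0.43, against -0.09 over all genes. With the stricter filter Gfra2 was at 0.78 and Ret at 0.60, and with cells thinned to 2000 UMIs Gfra2 was at 0.20 and Ret at 0.61.

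Within Nos1 cells, Ntrk2 and Gfra2 were over 2-fold higher at P1 than at E16.5, from 4 members that entered, where 11.6% of 7826 genes were higher and 4.59% lower. Ntrk2 had a log2 ratio of 1.39 (1.13 to 1.68) and Gfra2 of 1.10 (0.08 to 2.43), while Sort1 stood at -0.02 (-0.80 to 0.83). Ntrk3 was at -0.75 (-1.28 to -0.23), and without cells holding at least 2 excitatory markers at 0.36, so its direction turned with those cells. Without those cells Ntrk2 was at 1.01 and Gfra2 at 0.57. With Chodl in place of Nos1 Ntrk3 was at 0.97. The median of the 4 was 0.54, against 0.15 over all genes. From P1 to P5 in Nos1 cells, Gfra2 was over 2-fold lower at -1.40 (-2.28 to -0.75), the 1 member of 4 to pass, where 6.54% of 10550 genes were higher and 12.3% lower. Ntrk3 was at -0.996 (-1.57 to -0.50), or -0.41 without the cells with excitatory markers and -0.17 with Chodl in place of Nos1. Ntrk2 was at 0.07 (-0.05 to 0.20) and Sort1 at 0.66 (0.19 to 1.17), with a median of the 4 of -0.46 against -0.17 over all genes. Gfra2 was at -0.22 with the stricter cell filter and at -0.68 with Chodl in place of Nos1.

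**Figure D3:**
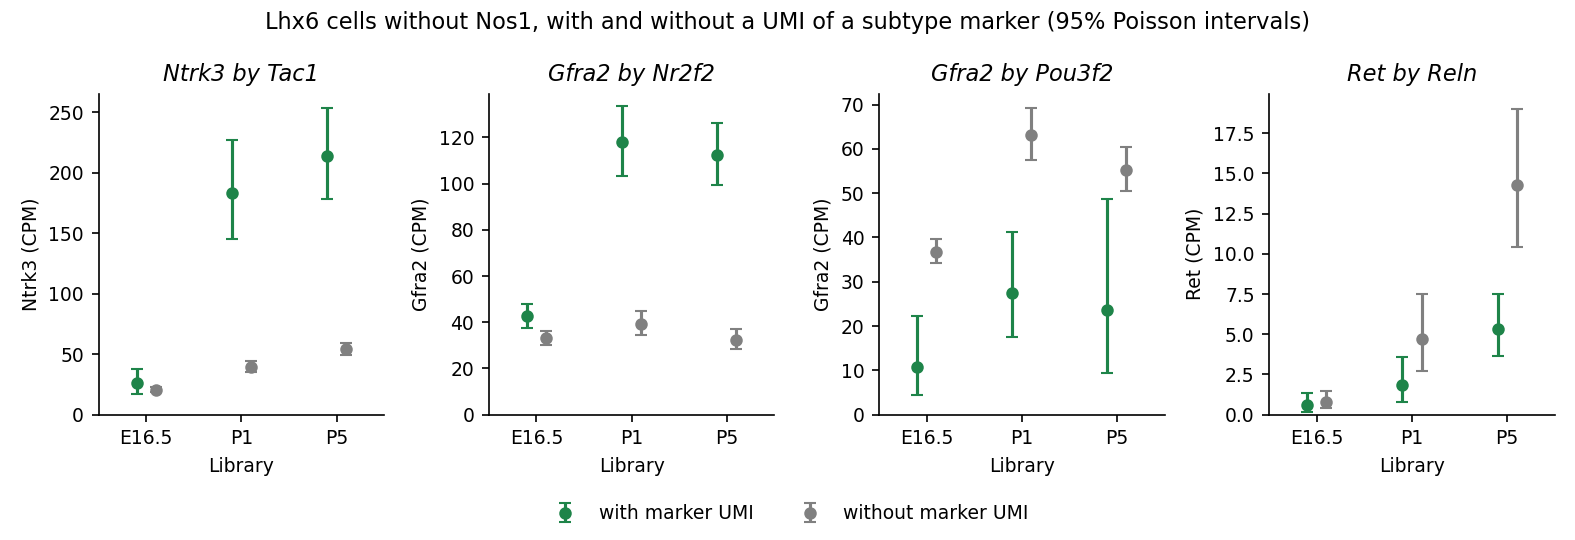
CPM of Ntrk3, Gfra2 and Ret (vertical axes, each with its own scale) in Lhx6 cells with and without a UMI of a subtype marker in the E16.5, P1 and P5 libraries (horizontal axes), with 95% Poisson intervals. Ntrk3 lies at 183 against 39.6 CPM at P1 and 214 against 54.2 CPM at P5 in cells with and without Tac1, and Gfra2 at 118 against 39.4 CPM and 112 against 32.4 CPM in cells with and without Nr2f2.

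The receptors also differed among subtypes within each class, described by splitting cells on 1 UMI of a marker. Within Lhx6 cells, 16 markers in 3 libraries gave 179 member values with at least 10 expected UMIs, of which 16 were over 2-fold higher and 18 over 2-fold lower in cells with the marker. Over all genes and the same splits, 1.3% were higher and 1.87% lower. Within Nos1 cells, 4 markers gave 26 member values, of which 0 were over 2-fold higher and 5 lower, against 2.38% and 3.49% over all genes. Depth differed across some of these splits, as for Lhx6 cells with and without Nr2f2 at P1 (medians of 8532 and 3515 UMIs), and its part in the differences was not tested. A marker and member are named where the ratio passed 2-fold the same way in at least 2 libraries.

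Ntrk3 was high in Lhx6 cells with Tac1, which encodes the substance P precursor. It stood at 26.0 CPM with a Tac1 UMI and 20.4 without at E16.5, 183 and 39.6 CPM at P1, and 214 and 54.2 CPM at P5, with log2 ratios of 0.34, 2.18 and 1.96. The difference was thus over 2-fold in the postnatal libraries alone. By Cbln4, which encodes a secreted synaptic organizer, Ntrk3 was at 42.5 and 19.9 CPM at E16.5 and 93.8 and 44.1 CPM at P1, both over 2-fold higher with the marker, but at 41.9 and 65.3 CPM at P5, a log2 ratio of -0.63 (-1.60 to 0.17). Lhx6 cells with Pou3f2, a POU-domain transcription factor of the long-range neurons, held less Ntrk3 after birth, at 21.5 against 50.6 CPM at P1 and 10.1 against 66.4 CPM at P5, the lower value at P5 being 3 UMIs. At E16.5 the values were 18.6 and 20.8 CPM.

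Gfra2 was high in Lhx6 cells with Nr2f2, which encodes the transcription factor COUP-TFII, after birth. With and without an Nr2f2 UMI it stood at 42.5 and 33.2 CPM at E16.5, 118 and 39.4 CPM at P1, and 112 and 32.4 CPM at P5, with log2 ratios of 0.35, 1.56 and 1.76. By Myh8, a myosin heavy chain gene used as a Martinotti marker, Gfra2 was at 148 and 55.5 CPM at P1 and 104 and 49.0 CPM at P5. By Pou3f2 it was lower in all 3 libraries, at 10.9 against 36.8 CPM, 27.5 against 63.2 CPM and 23.6 against 55.2 CPM, the same direction as between Nos1 and Lhx6 cells. Mef2c, a transcription factor gene, split Gfra2 at E16.5 (38.0 and 15.2 CPM) and P1 (60.9 and 15.2 CPM), but the order was the opposite at P5, at 51.1 and 90.2 CPM.

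Ret was lower in Lhx6 cells with a Reln UMI, the gene for the secreted glycoprotein reelin. It stood at 1.83 and 4.68 CPM with and without Reln at P1, a log2 ratio of -1.01, and at 5.30 and 14.3 CPM at P5, a ratio of -1.28. At E16.5 Ret had under 10 expected UMIs in the split. In Nos1 cells, Ntrk2 was lower with Dach1, a transcription factor gene that marks a subset of the long-range neurons. With and without a Dach1 UMI it was 114 and 241 CPM at E16.5 (23 cells with Dach1), 299.5 and 608 CPM at P1 (101 cells), and 338 and 588 CPM at P5 (42 cells). The log2 ratios were -1.08, -1.02 and -0.80, lower in each library and over 2-fold at E16.5 and P1. The 14 Nos1 cells at E16.5 with at least 2 excitatory markers, which held Ntrk2 at 59.7 CPM, stayed in the split. Their part in it was not tested.

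The classes used for likeness split Lhx6 cells further, into those with Martinotti markers (1803, 773 and 1166 cells), those with non-Martinotti markers, Tac1 among them (98, 45 and 101 cells), and the rest (1368, 788 and 607 cells). Ntrk3 stood at 20.9, 34.1 and 19.4 CPM in these groups at E16.5, 37.9, 218 and 48.8 CPM at P1, and 41.5, 189 and 99.5 CPM at P5. Ntrk3 was thus highest in the cells with non-Martinotti markers in each library, beyond counting error at P1 and P5. Ret stood at 0.755, 1.89 and 0.536 CPM at E16.5, 2.05, 15.5 and 3.84 CPM at P1, and 5.70, 20.8 and 13.0 CPM at P5, with 1, 4 and 10 UMIs in the non-Martinotti group, whose intervals overlap those of the 3rd group in each library but lie above those of the Martinotti group at P1 and P5. Gfra2 was at 35.6, 62.5 and 34.8 CPM, 68.6, 81.6 and 41.9 CPM, and 64.8, 47.9 and 28.4 CPM, and the non-Martinotti and Martinotti groups differed beyond counting error at E16.5 alone. Ntrk2 varied less, from 359.95 to 379 CPM at E16.5, 552 to 611 CPM at P1 and 449.6 to 489 CPM at P5.

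Detection of the members in the same cell was counted after thinning to 2000 UMIs. No member was detected in 55.4%, 33.1% and 28.0% of Nos1 cells and in 42.2%, 28.4% and 27.6% of Lhx6 cells at E16.5, P1 and P5. Exactly 2 members were detected in 6.15%, 7.58% and 7.005% of Nos1 cells and in 8.61%, 14.8% and 15.5% of Lhx6 cells, the Nos1 values being 4, 27 and 29 cells. With 3 members the shares were 1.54% (1 cell), 0% and 0.966% of Nos1 cells and 0.387%, 1.37% and 2.69% of Lhx6 cells. Few cells held both Gfra2 and Ret, co-receptor and kinase of 1 complex, and Ret was itself in few cells. At P5, Ret was in 6 of the 153 Lhx6 cells with Gfra2 (3.92%, 1.45 to 8.34) and in 25 of the 1520 without it (1.64%, 1.07 to 2.42), intervals that overlap. Ntrk3 was in 8.11% (6.38 to 10.1) of Lhx6 cells with Ntrk2 and 4.42% (2.72 to 6.75) of those without at P1, which overlap, and in 10.2% and 12.1% at P5.

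Genes whose pattern was most like each member were found by Pearson correlation of log2(CPM + 1) over 15 sums, 5 classes in 3 libraries, among the 11921 genes with at least 100 UMIs. The points share libraries and depth, and the coefficients are descriptions. For Ntrk2 the closest genes were Cers4 (r = 0.948), Snapc4 (0.935) and Bmpr2 (0.935). For Ntrk3 they were Creb5 (0.902), Cxxc5 (0.894) and Ptprk (0.892), and for Ngfr Klhdc8b (0.8999), N6amt1 (0.897) and Atraid (0.891). For Sort1 they were R3hdm4 (0.968), Astn2 (0.968) and Syt11 (0.964). For Gfra2 they were Serpini1 (0.912), Kctd12 (0.889) and Dock4 (0.875), and for Ret Cckbr (0.947) and Cort (0.943). Gfra1 had too few UMIs for the measure. Among the members themselves, Sort1 and Ret were the closest pair (0.858), followed by Ntrk3 and Ret (0.745), and Ntrk2 and Ngfr ran opposite (-0.527).

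Of the ligand genes, 7 are given here, and their mRNA was scarce in both classes. Nrtn, which encodes neurturin, the ligand preferred by the Gfra2 product, stood at 2.07, 1.75 and 7.99 CPM in Lhx6 cells and at 0, 0 and 2.55 CPM in Nos1 cells. At P5 its log2 ratio of Nos1 to Lhx6 cells was -1.34 (-3.31 to -0.36), from 5 and 74 UMIs. Bdnf had 1, 11 and 0 UMIs in Nos1 cells, the 11 at P1 lying in 3 cells, and 2, 0 and 4 UMIs in Lhx6 cells. Ntf3 had 1, 4 and 2 UMIs in Nos1 cells and 9, 0 and 2 in Lhx6 cells. Ntf5 and Artn had at most 5 UMIs per class and library. Gdnf had 1 UMI in the 2 classes over all libraries, in Lhx6 cells at P5, and Pspn had 1, in Lhx6 cells at E16.5.

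The wider pathway was read from 52 genes, namely the ligands, other receptors and sorting receptors, adaptors, and regulators and response genes. Between Nos1 and Lhx6 cells, 22 entered at E16.5, with 1 over 2-fold higher in Nos1 cells and 0 lower (all genes 1.78% and 2.58%) and a median log2 ratio of -0.05 (all genes -0.04). At P1 35 entered, with 2 higher and 0 lower (2.67% and 2.32%) and a median of 0.03 (-0.03). At P5 32 entered, with 2 higher and 4 lower (2.77% and 5.25%) and a median of -0.00 (-0.08). Vgf, a neuropeptide precursor gene induced by neurotrophins, was the largest at E16.5 among those that entered, at 58.9 against 24.8 CPM (log2 1.21). Spred1, a brake on Ras signalling, was at 38.7 against 60.1 CPM (-0.62), and Plcg1, a phospholipase recruited by Trk receptors, at 33.7 against 50.6 CPM (-0.57). Islr2, which encodes a membrane protein that interacts with Trk and Ret receptors, and Dok5, a Ret adaptor gene, had under 10 expected UMIs there and did not enter, at 104 against 2.45 CPM and 47.1 against 4.29 CPM. At P1 Islr2 was at 37.1 against 4.24 CPM (2.86). Vgf was at 90.4 against 33.2 CPM (1.42) and Rtn4r, the Nogo receptor gene, at 35.0 against 17.2 CPM (0.98). Excitatory markers also stood higher in Nos1 cells, at 581 against 8.05 CPM at E16.5 and 154 against 9.36 CPM at P1. The part of the cells with those markers in the pathway values, here and between libraries, was not tested. At P5 Dok5 was at 5.60 against 28.0 CPM (-2.13), Etv5, a transcription factor gene downstream of Ret, at 2.55 against 11.0 CPM (-1.76), and Rtn4r at 23.9 against 7.02 CPM (1.64).

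Between libraries, the pathway genes are counted beside the same shares over all genes. In Lhx6 cells 41 entered from E16.5 to P1, with 5 over 2-fold higher and 2 lower (all genes 10.7% and 3.66%), and a median log2 ratio of 0.29. Among the largest were Fos, an activity-induced gene, at 8.74 CPM at P1 against 95.3 at E16.5 (-3.31), and Sorcs3, a sortilin relative, at 25.8 against 4.57 CPM (2.27). From P1 to P5 41 entered, with 5 higher and 7 lower (9.01% and 10.4%), and a median of -0.13. Among the largest were Frs3, a Trk adaptor gene, at 4.75 CPM at P5 against 31.2 at P1 (-2.49), and Spry1, a feedback inhibitor of receptor kinases, at 1.62 against 8.49 CPM (-1.86). In Nos1 cells 26 entered from E16.5 to P1, with 2 higher and 4 lower (11.6% and 4.59%), and a median of 0.41. Fos was at 5.59 against 111 CPM (-4.09), Sdc3, a heparan sulfate proteoglycan gene, at 326 against 82.5 CPM (1.97), and Dok5 at 12.7 against 47.1 CPM (-1.81). From P1 to P5 33 entered, with 3 higher and 4 lower (6.54% and 12.3%), and a median of -0.21. Etv5 was at 2.55 against 16.2 CPM (-2.28), Dusp6, which encodes an ERK phosphatase, at 2.04 against 9.65 CPM (-1.81), and Frs3 at 9.68 against 32.0 CPM (-1.63).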

How the data were processed

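The deposited files hold raw UMI counts per gene and cell, made by the authors with Cell Ranger (3.1.0 for E16.5 and P5, 3.0.2 for P1, per the file headers) on GRCm38. STAR and Seurat are named in the submitters' processing notes. From these counts, UMIs were summed per class and library over cells with more than 700 genes and under 10% mitochondrial UMIs, scaled to CPM over all genes, and compared as log2 ratios with 1 CPM added, using Python 3.11.15, numpy 2.4.6, scipy 1.17.1, pandas 2.3.3 and matplotlib 3.10.9. Intervals are 95% exact Poisson for CPM, Clopper-Pearson for shares and conditional binomial for ratios, the last without the added CPM. Counts past 2-fold use genes with at least 10 expected UMIs in the smaller class. A count of 0 allows 3 counts. Named were all 7 members, their ligands, the 3 pathway genes with the largest absolute ratio in each comparison, the 3 genes most like each member, and the markers, save a few genes that are not reported here. Nos1 cells with excitatory markers were examined after the data were seen. The members and lists were chosen with earlier results of these data known. Gene positions are from GENCODE M21. The steps were tested on simulated data. Alternatives numbered 16 planned and 2 added later. Cells were not clustered, and transcript forms were not separated.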

Additional observations from a re-analysis of the deposited data

Results flagged for a closer look

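Ntrk2 drew attention because its difference between Nos1 and Lhx6 cells had opposite directions at different stages. Its log2 ratio was -0.87 at E16.5 and -0.16 at P1, and 0.22 at P5. Ntrk3 drew attention for the same reason, with 1.91 at E16.5 and -1.42 at P5. Its E16.5 value was 0.25 without cells holding at least 2 excitatory markers, with under 10 expected UMIs. With Chodl in place of Nos1 it was 0.18. With 1 library per stage, whether these ratios differ between stages was not tested.

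Kept cells with neither a Nos1 nor an Lhx6 UMI belong to none of the comparisons, and some members stood higher there than in both classes that were compared. Ntrk2 was at 859 CPM in them at P1. Ntrk3 was at 105 CPM at P1 and 97.9 CPM at P5. Ngfr was at 9.01 CPM at P5, from 15 UMIs in 8 cells. Gfra1 was at 8.12 CPM at P1, from 8 UMIs that all lay in 1 cell. Markers of other cells were also higher in them at P1 and P5, apart from microglial markers at P1. Excitatory markers summed to 263 CPM at P1 and 115 CPM at P5, and Meis2-type and caudal eminence markers to 322 and 49.9 CPM. Astrocyte markers summed to 112 and 13.2 CPM, and oligodendrocyte lineage markers to 44.7 and 46.3 CPM. Microglial markers stood at 0 CPM at P1 and 52.9 CPM at P5. Medial ganglionic eminence markers were far more abundant in these cells, at 4899 and 3314 CPM. Sst among them was at 2156 and 1567 CPM, against 1518 and 1425 CPM in Lhx6 cells. The cells were also shallow, with medians of 1559 and 2469 UMIs, against 3811 and 4752.5 in Lhx6 cells. The part of cell type and of depth in the receptor levels was not tested.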

How the results depend on the processing

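Nos1 and Lhx6 cells were compared within each library, and no test across the 3 libraries, which are 3 stages, was run. The E16.5 Nos1 class holds 67 cells and 594151 UMIs, and Ngfr, Gfra1 and Ret had 3.70, 0.272 and 0.436 expected UMIs there, under the 10 that a log2 ratio needed. Over all alternatives, 340 of 418 log2 ratios stayed within the counting interval of the reported value, 78 moved outside it and 0 past 2-fold changed sign. The pseudocount of 0.1 CPM, the filter on ln(total UMI) used by the study, and totals without mitochondrial, ribosomal and Y genes moved none of the log2 ratios. Of 84 shares of cells, thinning to 2000 or 1000 UMIs moved 67, since thinning takes UMIs away.

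The values given next are log2 ratios of Nos1 to Lhx6 cells. Ratios between libraries moved too, some of which are given with the stage comparisons. Over all comparisons 10 of 32 ratios moved with the stricter filter and 9 with no filter. With all cells without Nos1 in place of Lhx6 cells, 1 of 24 moved. Except where stated, the cause was not tested. With Chodl in place of Nos1, Ntrk2 was -0.40 at E16.5 and -0.063 at P1, Ntrk3 0.18 at E16.5 and -0.61 at P5, and Gfra2 -0.40 at E16.5 and -1.30 at P5, with 0 members past 2-fold at E16.5 (2 as reported) and 1 at P5 (3 as reported). With at least 2 Nos1 UMIs, Ntrk2 was -1.20 at E16.5, Ntrk3 -0.36 at P1 and Gfra2 -1.72 at P1. Past 2-fold were 1 member at E16.5, Ntrk2, and 1 at P1 (0 as reported). Ntrk3 and Gfra2, the members past 2-fold at E16.5 as reported, had under 10 expected UMIs there. With at least 5 Nos1 UMIs, chosen after seeing the data, Ntrk2 was -1.55 at E16.5 and -0.37 at P1. Ntrk3 was 2.56 at E16.5 and -0.71 at P1, and Gfra2 -2.17 at P1. The E16.5 Ntrk3 value rests on 14 UMIs in 3 of 8 cells, 9 of them in 1 cell, with under 10 expected UMIs. Past 2-fold were 1 member at E16.5, Ntrk2, and 1 at P1. Leaving out cells with at least 2 excitatory markers, also chosen after seeing the data, gave Ntrk2 -0.48 and Ntrk3 0.25 at E16.5 and Ntrk3 -0.54 at P1, with 0 members at E16.5. Leaving out such cells together with the deepest 5% and cells with glial or vascular markers gave Ntrk2 -0.56 and Ntrk3 0.47 at E16.5 and Ntrk3 -0.78 at P1, with 0 members at E16.5 and 1 at P1. In both of these settings Ntrk3 had under 10 expected UMIs at E16.5. The mean of per-cell CPM gave Ntrk3 1.45 at E16.5 and Ntrk2 -0.31 at P1, with 1 member at P1. Thinning to 2000 UMIs gave Ntrk3 0.97 at E16.5 and, at P1, Ntrk2 -0.26, Gfra2 -0.51 and Sort1 -0.95. It left 0 members at E16.5, where Gfra2 was at -2.19, but neither Gfra2 nor Ntrk3 had 10 expected UMIs there. With no cell filter Ntrk2 was -0.35 at P1, and with over 1000 genes and under 5% mitochondrial UMIs it was -0.33, with 1 member past 2-fold at P1 in each. A pseudocount of 10 CPM, which by construction shrinks ratios of low genes, gave Gfra2 -1.63 at P5 and 1 member at E16.5. At least 3 expected UMIs, which lets in more genes, gave 1 member at P1, and at least 30, which lets in fewer, gave 0 at E16.5. A fold of 1.5 gave 1 member at P1.

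Counts of all genes past the fold, 321, 525 and 839 between the classes at E16.5, P1 and P5, became 178, 220 and 394 with a pseudocount of 10 CPM, 1074, 1367 and 1942 at a fold of 1.5, 866, 876 and 1272 with at least 3 expected UMIs, and 96, 282 and 483 with at least 30. Thinning gave 152 at E16.5, and at least 5 Nos1 UMIs gave 820 at P1. In Lhx6 cells, 1761 genes from E16.5 to P1 and 2486 from P1 to P5 became 637 and 909 with a pseudocount of 10 CPM and 4447 and 5600 at a fold of 1.5, and the stricter cell filter gave 1033 from E16.5 to P1. In Nos1 cells, 1265 and 1986 became 759 and 896 with a pseudocount of 10 CPM, 3169 and 4617 at a fold of 1.5, and 603 and 1297 with at least 30 expected UMIs. From E16.5 to P1 in Nos1 cells the count was 803 with at least 2 Nos1 UMIs, 439 with at least 5, 835 without possible doublets and other cells, 520 after thinning and 2204 with at least 3 expected UMIs. Members past 2-fold in Lhx6 cells from E16.5 to P1, 3 as reported, ranged from 0 with the stricter filter, after thinning or with a pseudocount of 10 CPM to 5 with no filter.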
